A study of Mus musculus with 36 samples.

Results

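This account covers mouse embryonic stem cells (mESCs) grown for 48 h on soft or on stiff StemBond hydrogels in medium with serum, LIF and PD03. The comparison was chosen by the column headings of the deposited count table, and it holds the 3 libraries of the soft group and the 3 of the stiff group, 6 of the 36 libraries of the study. All 36 came from cells labelled wild type on a 129m background. StemBond hydrogels are polyacrylamide gels with extracellular matrix protein tethered covalently to them, here fibronectin per the study's methods, and they were cast at a low or a high stiffness. LIF is a cytokine that activates STAT3, and PD03 inhibits MEK, the kinase upstream of ERK. The other libraries came from soft and stiff gels after 48 h in serum + PD03, serum + LIF or serum alone and after 24 h in serum + LIF, and from tissue culture plastic after 48 h in serum + LIF. The methods name more than 1 mESC line without saying which gave these RNAs, so that line and clone are not known here.

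Cells on a stiff surface spread, pull on integrins and assemble actin filaments. Polymerised actin releases the MRTF coactivators to SRF, a transcription factor that binds the CArG box and drives actin, tropomyosin, calponin and filamin genes, and tension also favours nuclear entry of YAP, which works with TEAD factors. In mESCs, STAT3 activity sustains the naive state and ERK activity promotes the exit from it, so that medium with LIF and a MEK inhibitor holds cells close to the naive state.

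The SRF targets among the genes that fell on soft substrates included several with a CArG box just before the start of transcription. These stretches are shown because Acta2 and Flnc, which belong to this class, were among the largest falls of the comparison. The sequences are those of RefSeq for GRCm38.p6, written 5′ to 3′ on the strand of the gene, with the CArG box in capitals. The box was read as CC, then 6 letters that are A or T, then GG. For Acta2 and Flnc, whose stretches are at chr19:34255423-34255482, minus strand, chr19:34255374-34255432, minus strand and chr6:29432965-29433024, plus strand, the capitals mark boxes in which 1 of the 6 inner letters is C or G. Exact boxes stood before Acta1 (chr8:123894814-123894873, minus strand), Fhl1 (chrX:56779556-56779615, plus strand), Cnn2 (chr10:79988519-79988578, plus strand), Actg1 (chr11:120348551-120348610, minus strand), Myl9 (chr2:156775278-156775337, plus strand) and Vcl (chr14:20929148-20929205, plus strand). Among the genes with exact boxes, the log2 fold change was -1.42 for Acta1, -0.80 for Fhl1 and -0.53 for Cnn2. It was smaller in size for Myl9 (-0.25), Actg1 (-0.22) and Vcl (-0.18). The first letter of the box lay between 34 bases (the nearer Acta2 box) and 227 bases (Vcl) before the start.
Acta2, farther box: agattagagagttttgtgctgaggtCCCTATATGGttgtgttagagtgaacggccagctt
Acta2, nearer box: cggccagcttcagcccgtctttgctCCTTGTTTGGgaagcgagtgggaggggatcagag
Flnc: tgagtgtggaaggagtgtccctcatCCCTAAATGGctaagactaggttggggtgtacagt
Acta1: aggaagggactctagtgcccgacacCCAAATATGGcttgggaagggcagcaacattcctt
Fhl1: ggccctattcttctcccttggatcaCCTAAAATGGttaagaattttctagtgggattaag
Cnn2: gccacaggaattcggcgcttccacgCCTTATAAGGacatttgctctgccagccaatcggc
Actg1: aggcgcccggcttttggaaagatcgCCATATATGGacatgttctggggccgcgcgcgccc
Myl9: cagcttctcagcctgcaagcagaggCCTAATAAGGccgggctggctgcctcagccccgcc
Vcl: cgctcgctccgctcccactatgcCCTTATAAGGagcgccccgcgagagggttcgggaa

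The total count of the 6 libraries ranged from 18615832 to 24800445. Nothing in the labels says that the libraries of a group came from separate cultures. The p-values measure the spread between libraries of a group, estimated over all 36 libraries, and this spread may be technical. Library numbers follow the order of the columns and are names only. Log values of CPM, the counts of a gene scaled to the size of its library, correlated at 0.996 to 0.997 between libraries of the same substrate and at 0.994 to 0.995 between soft and stiff libraries. Mitochondrial transcripts made up 1.41%, 1.32% and 1.54% of the counts in the stiff libraries and 1.53%, 1.501% and 1.75% in the soft libraries, so the ranges overlapped. Genes of ribosomal proteins made up between 4.77% and 4.94% in the stiff and between 5.08% and 5.16% in the soft libraries, without overlap. The sample descriptions put all 3 soft libraries in 1 sequencing pool and all 3 stiff libraries in another, so that substrate and pool cannot be told apart within this comparison. A pool term could only be estimated from other groups that were split over pools. Of these, only the soft serum + PD03 group spanned the pool of the soft and that of the stiff libraries compared here. Because the columns of the split groups carry no pool name, the term was fitted for each of the 45 ways of assigning them. The result is given beside each gene list.

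The question of the comparison was whether stiffness still changes the transcriptome when both LIF and the MEK inhibitor are present. By the quasi-likelihood test of edgeR with Benjamini-Hochberg adjustment, 1348 of 17702 tested genes (7.61%) had an adjusted p under 0.05. On soft substrates, 853 genes were lower (4.82%) and 495 were higher (2.80%). The falls were larger than the rises. The median log2 fold change of the genes that fell was -0.54, that of the genes that rose was 0.25, and that of all tested genes was 0.0049. A change of at least 1.5-fold was seen in 381 genes that fell and 41 that rose, and a change of more than 2-fold in 149 and 15. The values of the soft and stiff libraries did not overlap in 1313 of the 1348 genes, while 4386 of all 17702 tested genes (24.8%) had no overlap. Over the assignments of the pool term, the count of calls was between 246 and 724, and 139 of the genes, 133 lower and 6 higher, were called in every assignment.

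Direction and level went together. Among the 2301 genes above 100 CPM, 196 rose and 146 fell. Among the 3430 genes between 5 and 20 CPM, 61 rose and 255 fell. The median SE of the log2 fold change was 0.05 in the first of these classes and 0.13 in the other, so smaller changes could be called among abundant genes, yet the excess of falls was held by genes of middle and low level. By type of gene, 471 of the genes that rose and 841 of those that fell coded for protein. Pseudogenes gave 18 rises and 3 falls among 937 tested, and since their reads can be shared with the parent gene, those values are uncertain.

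**Figure D1:**
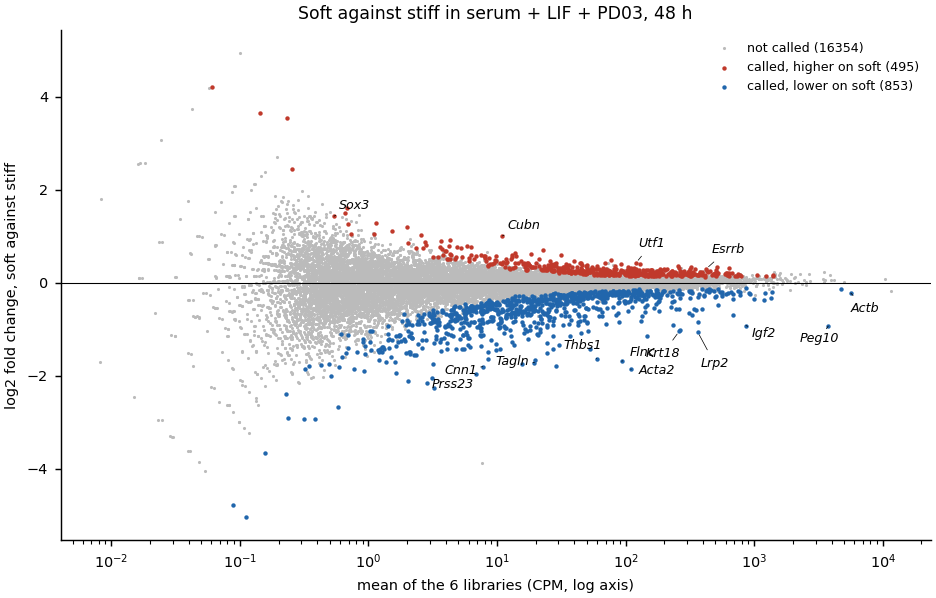
Each point is 1 of the 17702 tested genes, with the mean level of the 6 libraries in CPM on a log axis and the log2 fold change of soft against stiff substrates. Blue points are the 853 genes that were lower and red points the 495 that were higher at an adjusted p under 0.05. Falls reach further from 0 than rises at every level above 5 CPM.

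The largest changes were listed among called genes with a mean of at least 5 CPM whose soft and stiff libraries did not overlap. By this rule, the largest fall was that of Prss23, a secreted serine protease. The level of Prss23 was 12.3, 10.96 and 9.53 CPM in the stiff and 2.43, 3.14 and 2.83 CPM in the soft libraries. The soft libraries were lower by 1.96 on the log2 scale (SE 0.18, edgeR adjusted p 1.08e-11). Values written with ± below are log2 fold changes with their SE. Next were Acta2 (-1.86), Cnn1 (-1.80), Pmp22 (-1.78), Col12a1 (-1.75), Tagln (-1.71), Flnc (-1.69), Csf1 (-1.65), Fras1 (-1.64), Thbs1 (-1.63), Ptgs2 (-1.51) and Slc39a8 (-1.48). Pmp22 encodes a membrane protein of myelin and epithelia, Fras1 a protein of basement membranes, Ptgs2 the inducible cyclooxygenase COX-2 and Slc39a8 a zinc transporter. These 12 genes held no pluripotency factor.

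By the same rule, which required groups without overlap, the largest rise was that of Cubn, the endocytic receptor cubilin. It measured 5.36, 8.75 and 7.76 CPM in the stiff libraries and 12.9, 15.3 and 15.9 CPM in the soft libraries. Its rise was 1.01 ± 0.16 (edgeR adjusted p 1.37e-05). The other rises of this rule were below 0.80 on the log2 scale. They were those of Hist1h2ao (0.78), Rprl3 (0.76), Trh (0.75), which encodes the precursor of thyrotropin-releasing hormone, Hist1h3h (0.69), Srgn (0.65), Gm15501 (0.62), Rasa4 (0.60), Sema6c (0.59), Bcas1 (0.59), Gm24447 (0.59) and Itpka (0.58). The histone copies, the RNase P RNA copy Rprl3 and the pseudogene Gm15501 have near-identical copies, so their reads cannot be assigned with certainty. Gm24447, a non-coding RNA, turned to -0.41 under 1 pool assignment.

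The genes that fell with the smallest p-values were Flnc, Thbs1, Lrp2, Acta2, Lpp and Krt18. Lrp2 encodes megalin, the endocytic receptor that works with cubilin. Libraries from stiff gels gave 482, 481 and 506 CPM, and those from soft gels gave 231, 249 and 229 CPM. The soft libraries were all below the stiff ones (-1.05 ± 0.06, edgeR adjusted p 6.32e-20), so Lrp2 and Cubn moved in opposite directions. The genes that rose with the smallest p-values were Utf1, Bahcc1, Zfp710, Dlgap3, Ifitm2 and Esrrb. Bahcc1, which encodes a chromatin reader, is an example. Stiff libraries held 105, 110.3 and 119 CPM of Bahcc1, and soft libraries held 137, 157 and 150.1 CPM. Its groups did not overlap (0.41 ± 0.06, edgeR adjusted p 3.31e-07), and it was called under 42 of the 45 pool assignments.

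In CPM, which is not corrected for gene length, the largest drop was that of Peg10, a retrotransposon-derived imprinted gene. Its level in the stiff libraries was 5336, 4702 and 4785 CPM, and that in the soft libraries was 2561, 2416 and 2806 CPM. The soft libraries all lay far below the stiff libraries (-0.93 ± 0.06, edgeR adjusted p 6.28e-16). Other large drops in CPM were those of Actb (-0.22 on the log2 scale), Igf2 (-0.92), the chaperone Hsp90aa1 (-0.14), Ahnak (-0.70), Hspg2 (-0.32) and Lrp2. The largest gains in CPM were those of Sall4 (0.17), Rpph1 (0.33), Set (0.14), Rpl14 (0.15), Eif5a (0.17), Phc1 (0.34), Anp32a (0.20) and Atpif1 (0.28). Sall4 is a zinc finger factor of pluripotent cells and Phc1 a Polycomb protein. These gains were small on the log2 scale. For Rpph1 and Anp32a the soft and stiff libraries overlapped, and with the pool term Set, Eif5a and Atpif1 were called under 0, Rpl14 and Anp32a under 3, Rpph1 under 6, Sall4 under 15 and Phc1 under 39 of the 45 assignments.

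Genes of the contractile actin cytoskeleton fell together. Of the 31 tested genes of the smooth muscle and SRF list, 24 were lower on soft substrates and 0 were higher, beside 4.82% and 2.80% of all tested genes, and the median log2 fold change of the list was -0.35. The list was drawn up with earlier results of these libraries known, so the count describes it and is not independent evidence. Acta2 encodes smooth muscle actin. The level of Acta2 was 189, 173 and 153 CPM in the stiff and 39.7, 48.1 and 54.5 CPM in the soft libraries. Every soft library lay far below the lowest stiff library (-1.86 ± 0.10, edgeR adjusted p 1.28e-19). In bulk RNA, fewer cells that express a gene and less RNA per cell cannot be told apart, and this holds for every gene below.

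Tagln encodes transgelin, an actin-binding protein of smooth muscle. It measured 29.3, 32.4 and 28.2 CPM in the stiff libraries and 9.27, 8.97 and 9.15 CPM in the soft libraries. The soft libraries were within 0.3 CPM of each other. Flnc encodes filamin C, an actin cross-linker of muscle (chromosome 6, 29433256 to 29461883, GRCm38). Libraries from stiff gels gave 146, 142 and 139 CPM, and those from soft gels gave 40.5, 47.6 and 44.8 CPM. It had the smallest p of all genes in the comparison (-1.69 ± 0.07, edgeR adjusted p 3.60e-24). Cnn1 encodes calponin 1. Stiff libraries held 11.5, 12.3 and 12.3 CPM of Cnn1, and soft libraries held 2.77, 3.44 and 4.20 CPM. Acta1, the skeletal muscle actin gene, fell by 1.42 on the log2 scale, and Lmod1, which encodes the actin filament nucleator leiomodin 1, fell by 1.19.

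The genes of the list that most cell types express also fell, with values nearer to 0. The tropomyosin genes Tpm2 and Tpm1 changed by -0.71 ± 0.06 and -0.65 ± 0.05, and the non-muscle myosin heavy chain genes Myh10 and Myh9 by -0.59 ± 0.05 and -0.35 ± 0.05. Actb, the cytoplasmic β-actin gene, is the example with the highest counts. Its level in the stiff libraries was 6225, 6016 and 5996 CPM, and that in the soft libraries was 5169, 5468 and 4998 CPM. Even here the groups did not overlap (-0.22 ± 0.04, edgeR adjusted p 0.000300), although Actb was called under only 16 of the 45 pool assignments. Cfl1, which encodes the actin-severing protein cofilin, was not called (0.03 ± 0.04). The regulators themselves were not called either. Srf was at -0.03 ± 0.05, Mrtfa at -0.05 ± 0.05 and Mrtfb at -0.12 ± 0.06. Between 15 and 20 genes of the list were called lower with the pool term.

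**Figure D2:**
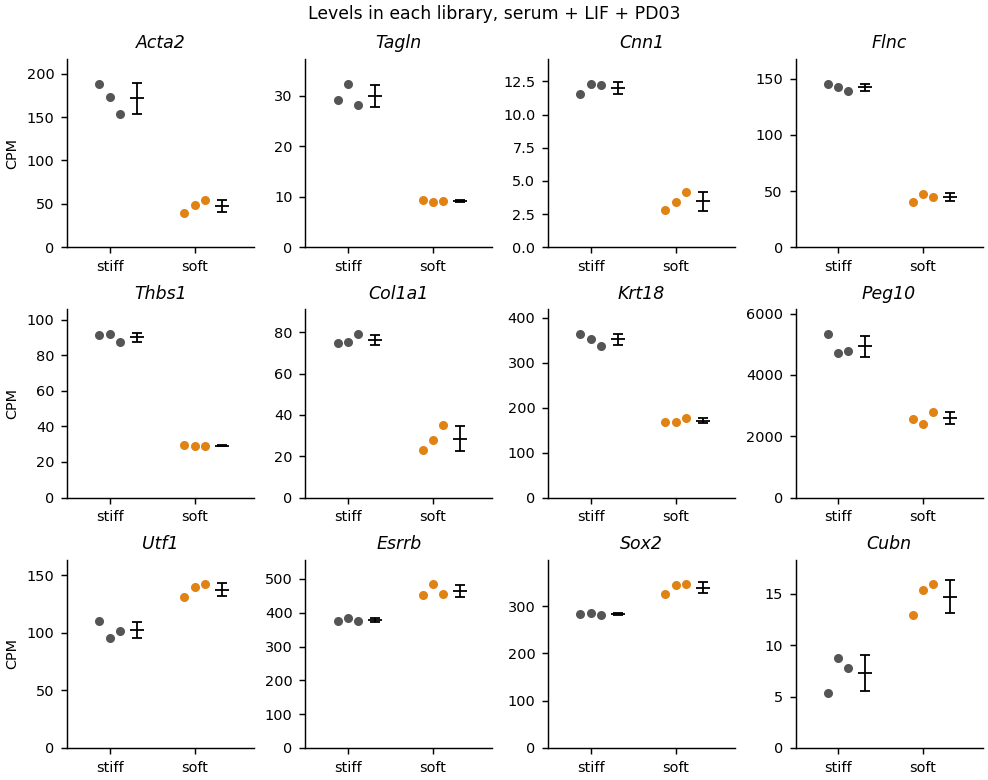
Each point is the level of a gene in 1 library in CPM, for 3 stiff (grey) and 3 soft (orange) libraries in serum + LIF + PD03, and the bars beside them are the mean ± SD (n = 3). Acta2, Tagln, Cnn1, Flnc, Thbs1, Col1a1, Krt18 and Peg10 were lower in every soft library than in any stiff library, and Utf1, Esrrb, Sox2 and Cubn were higher.

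Target and pathway genes of YAP and TEAD fell as well. Of 22 tested genes, with a median of -0.23, 10 were lower and 0 higher, beside 4.82% and 2.80% of all tested genes. Ccn1, a matricellular protein gene and a common readout of YAP, is shown by library. The level of Ccn1 was 131, 126 and 118 CPM in the stiff and 76.6, 86.7 and 82.4 CPM in the soft libraries. The groups did not overlap (-0.61 ± 0.09, edgeR adjusted p 1.10e-06). Its relative Ccn2 (-0.26 ± 0.05), the receptor kinase gene Axl (-1.38 ± 0.17) and F3, which encodes tissue factor (-1.07 ± 0.12), fell too. Ankrd1 had under 2.2 CPM in every library, and its fall (-1.49 ± 0.46) was called under 0 of the 45 pool assignments. Yap1 (0.01 ± 0.05), Wwtr1, which encodes TAZ (-0.10 ± 0.06), and Tead1 (-0.12 ± 0.05) were not called. Between 5 and 8 genes of the list were lower with the pool term.

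Integrin and focal adhesion genes that were called fell, with 1 exception. Of 31 tested genes, with a median of -0.15, 9 fell and 1 rose, beside 4.82% and 2.80% of all tested genes. The largest fall was that of Lpp, a zyxin relative of focal adhesions. It measured 205, 202 and 202 CPM in the stiff libraries and 84.2, 93.6 and 96.1 CPM in the soft libraries. All soft libraries were below all stiff libraries (-1.15 ± 0.06, edgeR adjusted p 3.74e-19). Zyx, which encodes zyxin, fell by 0.69, Parva, which encodes α-parvin, by 0.88, and Itgb1, the gene of the β1 integrin chain that fibronectin receptors use, by 0.45. The exception was Itga9 (0.36 ± 0.11), which rose and was called under 0 of the 45 pool assignments. Pxn (-0.01 ± 0.06), which encodes paxillin, and Ptk2 (-0.09 ± 0.07), which encodes focal adhesion kinase, were not called. With the pool term, between 6 and 9 genes were lower and 0 higher.

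Matrix genes were the other large group of falls. Of 24 tested collagen genes, with a median of -0.55, 12 were lower and 0 higher, beside 4.82% and 2.80% of all tested genes. Col1a1 encodes the α1 chain of fibrillar collagen I. Libraries from stiff gels gave 74.96, 75.1 and 79.2 CPM, and those from soft gels gave 22.8, 27.7 and 35.1 CPM. The soft libraries were all lower and were spread more widely than the stiff ones (-1.43 ± 0.12, edgeR adjusted p 9.54e-13). The collagen IV genes of basement membranes also fell, Col4a1 by -0.29 ± 0.05 and Col4a2 by -0.32 ± 0.06, and Col18a1 was not called (0.04 ± 0.05). Between 3 and 8 collagen genes were lower with the pool term.

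Of 38 further matrix and remodelling genes, with a median of -0.38, 17 were lower and 0 higher, beside 4.82% and 2.80% of all tested genes. Thbs1 encodes thrombospondin 1, an adhesive glycoprotein. Stiff libraries held 91.3, 91.98 and 87.3 CPM of Thbs1, and soft libraries held 29.6, 28.9 and 28.9 CPM. The libraries of each substrate were close together and far from those of the other (-1.63 ± 0.08, edgeR adjusted p 9.37e-22). Lox, the collagen cross-linking enzyme, was at a low level but gave the largest change of the list. Its level in the stiff libraries was 4.32, 5.51 and 5.23 CPM, and that in the soft libraries was 1.07, 1.84 and 0.708 CPM. Its log2 fold change was -2.04 ± 0.27 (edgeR adjusted p 1.19e-07). Serpinh1, the collagen chaperone gene, fell by 0.72, and Hspg2, the perlecan gene, by 0.32. The structural genes Fn1 (-0.03 ± 0.05), Lamc1 (-0.06 ± 0.05), Nid1 (0.03 ± 0.05) and Sparc (-0.12 ± 0.05) were not called. Fn1 encodes fibronectin, the protein on the gels. Between 6 and 13 genes of the list were lower with the pool term.

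Simple epithelial keratins fell by close to 1 on the log2 scale. Krt8 and Krt18 form the keratin pair of early epithelia. The level of Krt18 was 364, 354 and 338 CPM in the stiff and 169, 168 and 178 CPM in the soft libraries. Soft and stiff libraries were far apart (-1.04 ± 0.07, edgeR adjusted p 3.54e-17), and Krt8 (-1.01 ± 0.07), Krt19 (-1.14 ± 0.11) and Krt7 (-1.06 ± 0.12) had values of the same size. Lmna, the lamin A/C gene, fell by 0.57, while the lamin B1 gene Lmnb1 (0.03 ± 0.04) and Vim (-0.13 ± 0.05), which encodes vimentin, were not called. In all, 5 of 12 tested genes of intermediate filaments and lamins were lower and 0 higher, beside 4.82% and 2.80% of all tested genes. Those 5 were lower under every pool assignment.

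Of 26 tested genes of epithelial junctions, 13 fell and 3 rose, beside 4.82% and 2.80% of all tested genes. The falls included the tight junction genes Cgn (-0.84) and Cldn7 (-0.95), the desmosomal gene Dsp (-0.62) and Epcam (-0.38). E-cadherin, encoded by Cdh1, fell by 0.14 with an edgeR adjusted p of 0.0457, a call that was lost when any of the 6 libraries was left out. Ctnnb1, the β-catenin gene, was not called (-0.02 ± 0.05). The rises were those of Cdh3 (0.33), Jup (0.15) and Jam2 (0.17), where Cdh3 encodes P-cadherin and Jup plakoglobin. With the pool term, between 4 and 10 genes were lower and between 0 and 2 higher.

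**Figure D3:**
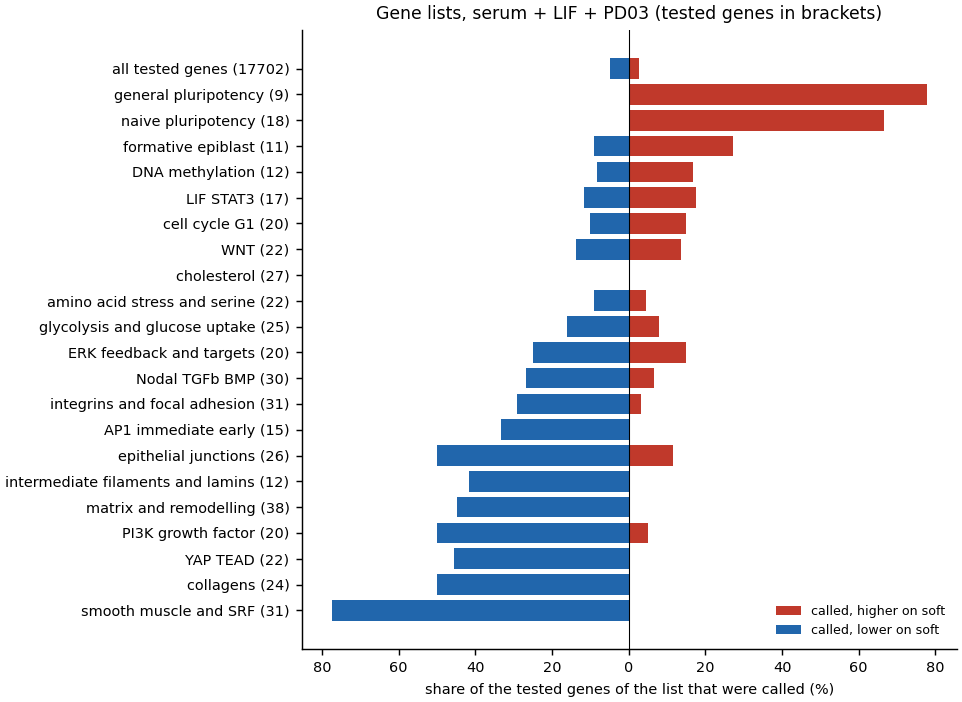
Bars show the share of the tested genes of each list, in percent, that were higher (red, to the right) or lower (blue, to the left) on soft substrates at an adjusted p under 0.05, and the top bar shows all tested genes. Of the smooth muscle and SRF list 24 of 31 genes were lower, of general pluripotency 7 of 9 genes were higher, and of the cholesterol list 0 of 27 passed the threshold.

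Pluripotency genes moved in the other direction by small amounts. Of 9 general pluripotency genes, 7 rose and 0 fell (median 0.25), and of 18 naive pluripotency genes, 12 rose and 0 fell (median 0.22), beside 2.80% of all tested genes that rose. Many of these genes were abundant, and above 100 CPM 196 of 2301 tested genes rose. All 18 naive genes had a positive log2 fold change. Esrrb, an orphan nuclear receptor of the naive network (chromosome 12, 86361117 to 86521628, GRCm38), had one of the smallest p-values. It measured 375, 384 and 376 CPM in the stiff libraries and 451, 484 and 455 CPM in the soft libraries. The groups did not overlap (0.29 ± 0.05, edgeR adjusted p 4.61e-06). Utf1, a chromatin factor of pluripotent cells, had the largest rise among the general genes. Libraries from stiff gels gave 110.2, 95.96 and 102 CPM, and those from soft gels gave 131, 140.1 and 142 CPM. The soft libraries were all above the stiff ones (0.42 ± 0.06, edgeR adjusted p 1.21e-07). Sox2, a core factor, rose by 0.26 ± 0.04.

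Among the other naive factors, Tcl1 (0.35 ± 0.08), Klf4 (0.23 ± 0.04), Klf5 (0.21 ± 0.06), Klf2 (0.21 ± 0.06) and Tbx3 (0.18 ± 0.05) rose. Nanog was not called. Stiff libraries held 777, 793 and 816 CPM of Nanog, and soft libraries held 889, 877 and 798 CPM. Here soft library 3 lay within the range of the stiff libraries (0.10 ± 0.06, edgeR adjusted p 0.301). Pou5f1, which encodes OCT4, was higher in each soft library than in any stiff library but did not pass the threshold (0.19 ± 0.07, edgeR adjusted p 0.0772), and Tfcp2l1 (0.09 ± 0.05) and Tet2 (0.09 ± 0.06) did not pass it either. In the other media Nanog rose in serum + PD03 (0.15 ± 0.05), in serum (0.36 ± 0.06) and after 24 h in serum + LIF (0.35 ± 0.06) and was not called in serum + LIF at 48 h (0.11 ± 0.06). Of the 18 naive genes, 8 rose in serum + PD03, 2 in serum + LIF, 14 in serum and 14 after 24 h. The calls in serum + LIF + PD03 rested on small changes. Under the alternatives without a pool term, among them leaving out single libraries, between 6 and 13 naive genes and between 4 and 8 general genes were called, and with the pool term between 1 and 5 of each list were. Zfp42, known as Rex1, changed from 0.19 to -0.015 under 1 pool assignment.

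Formative epiblast genes, which mark the stage after the naive state, went both ways. Of 11 tested genes, 3 rose and 1 fell, beside 2.80% and 4.82% of all tested genes. Otx2 (0.35 ± 0.09), Zic2 (0.36 ± 0.07) and Sox3 (1.43 ± 0.38) rose, the last from a level under 0.4 CPM on stiff substrates, and Grhl2, a factor of epithelial enhancers, fell (-0.61 ± 0.11). The marker Fgf5 was below 0.2 CPM in all 6 libraries, so a change could not be detected at this depth. Pou3f1 (-0.39 ± 0.16), Dnmt3a (0.00 ± 0.06) and Dnmt3b (-0.04 ± 0.07) were not called. With the pool term, between 0 and 2 genes were higher and between 0 and 2 lower.

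The pathways on which LIF and PD03 act were looked at next. Of 17 tested genes of LIF and STAT3 signalling, 3 rose and 2 fell, beside 7.61% of all tested genes that were called in either direction. Pim1 (0.22), Bcl3 (0.25) and Klf4 rose, and Ptpn11 (-0.25) and Osmr (-1.20) fell. Pim1 and Bcl3 are STAT3 targets, Ptpn11 encodes the phosphatase SHP2 and Osmr a receptor chain for oncostatin M. Few of these calls were kept with the pool term, where between 0 and 2 genes were higher and between 0 and 1 lower. Bcl3 was called under 0, Osmr under 3, Pim1 under 7, Ptpn11 under 14 and Klf4 under 25 of the 45 assignments. Socs3, the feedback inhibitor that reads out STAT3 activity, was not called. Its level in the stiff libraries was 56.6, 55.3 and 54.1 CPM, and that in the soft libraries was 58.9, 66.6 and 62.4 CPM. The soft values lay above the stiff ones without reaching the threshold (0.18 ± 0.07, edgeR adjusted p 0.129). Socs3 rose in serum + PD03 (0.44 ± 0.07, edgeR adjusted p 3.25e-06) and in serum (0.44 ± 0.07, edgeR adjusted p 2.73e-05), but its difference between the media with PD03 did not pass the threshold (-0.26 ± 0.10, edgeR adjusted p 0.848). Not called here were also Stat3 (0.11 ± 0.06), Lifr (0.10 ± 0.04) and Il6st (0.00 ± 0.05), the last 2 encoding the LIF receptor chains.

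Of 20 tested ERK feedback and target genes, with a median of 0.16, 5 fell and 3 rose, beside 4.82% and 2.80% of all tested genes. The falls were those of the phosphatase genes Dusp5 (-0.62), Dusp4 (-0.56) and Dusp1 (-0.40) and of Ier3 (-0.56) and Phlda1 (-0.35), and the rises those of Spry1 (0.52), Ccnd1 (0.23) and Spred2 (0.18). The immediate ERK targets Egr1 (0.30 ± 0.25), Fos (0.08 ± 0.30), Dusp6 (0.29 ± 0.12) and Spry4 (0.29 ± 0.35) were not called, and Egr1 and Spry4 were under 2 CPM in all libraries. With the pool term, between 0 and 3 genes were lower and between 0 and 2 higher. Beside the same shares of all tested genes, the AP-1 and immediate early list had 5 falls and 0 rises among 15 tested genes. Fosl2, a FOS relative, was the largest of them. The level of Fosl2 was 29.01, 26.6 and 29.8 CPM in the stiff and 12.1, 12.2 and 15.1 CPM in the soft libraries. The groups were well separated (-1.12 ± 0.10, edgeR adjusted p 2.44e-12), and Jun fell by 0.74. Between 2 and 4 genes of this list were lower with the pool term.

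Growth factor and receptor genes fell more often than they rose. Of 20 tested genes of growth factors and their receptors, 10 fell and 1 rose, beside 4.82% and 2.80% of all tested genes. Csf1 encodes the macrophage colony-stimulating factor. It measured 33.7, 29.6 and 25.8 CPM in the stiff libraries and 9.08, 9.37 and 9.92 CPM in the soft libraries. Its change was -1.65 ± 0.12 (edgeR adjusted p 5.50e-15). Egfr, the EGF receptor gene, fell by 1.29, and Igf2 by 0.92, while the receptor gene Kit rose (0.27 ± 0.06). Between 3 and 7 genes were lower with the pool term.

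Of 30 genes of the Nodal, TGFβ and BMP pathways, 8 fell and 2 rose, beside 4.82% and 2.80% of all tested genes. The ligand genes Bmp8b (-1.35) and Tgfb2 (-1.33) fell, Gdf3 (0.24) and the co-receptor gene Tdgf1 (0.25) rose, and Nodal was not called (0.00 ± 0.07). Beside the same shares, the WNT list had 3 falls and 3 rises among 22 genes. Wnt4 (-1.27), Dkk1 (-0.49) and Wnt7b (-0.35) fell, and Sfrp1 (0.30), Fzd5 (0.30) and Tcf7l1 (0.16) rose, whereas the feedback target Axin2 was not called (0.10 ± 0.09). The pool term left 3 to 5 genes lower and 0 to 2 higher in the first of these lists and 1 or 2 lower and 1 to 3 higher in the other.

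Metabolic, methylation and cell cycle lists stand beside 7.61% of all tested genes called in either direction. Of 27 tested cholesterol genes, 0 passed the threshold in edgeR and in DESeq2, with a median of 0.02. In edgeR, 4 had an unadjusted p under 0.05, beside 3407 of all 17702 tested genes. Of 25 glycolysis and glucose uptake genes, 4 fell and 2 rose. The glucose transporter gene Slc2a1 was the fall with the most counts. Libraries from stiff gels gave 648, 603 and 579 CPM, and those from soft gels gave 422, 440.2 and 452 CPM. Its groups did not overlap (-0.48 ± 0.07, edgeR adjusted p 4.45e-07), and Pfkfb3, which encodes an activator of glycolytic flux, fell by 0.66. Amino acid stress and serine genes gave 1 rise and 2 falls among 22, DNA methylation genes 2 rises and 1 fall among 12, and G1 cell cycle genes 3 rises and 2 falls among 20. Cdkn1c, a cell cycle inhibitor that is also imprinted, was the largest fall of the last list (-0.71). The pool term left 0 to 1 cholesterol genes, 0 to 3 glycolysis genes, 0 to 1 amino acid genes, 0 to 1 DNA methylation genes and 0 to 2 G1 genes higher, and 0, 1 to 3, 0 to 1, 0 to 1 and 1 to 2 genes of these lists lower.

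After these values had been seen, 2 further lists were drawn up, so their counts are descriptions. Beside 4.82% and 2.80% of all tested genes, 15 of 34 tested imprinted genes fell and 0 rose, with a median of -0.33. They included Igf2, which encodes a fetal growth factor. Stiff libraries held 1220.3, 1095 and 1073 CPM of Igf2, and soft libraries held 558, 565 and 669.7 CPM. The groups were far apart (-0.92 ± 0.09). H19 (-0.91 ± 0.08), the non-coding RNA next to Igf2, fell with it, as did Peg3 (-0.85 ± 0.05), Grb10 (-0.41 ± 0.05), Phlda2 (-0.51 ± 0.09), Mest (-0.44 ± 0.08) and Rian (-0.55 ± 0.10). Igf2, Peg3 and Mest are expressed from the paternal allele and H19, Phlda2 and Rian from the maternal allele. Snrpn (-0.01 ± 0.07), Impact (-0.12 ± 0.05) and Kcnq1ot1 (-0.19 ± 0.18) were not called. Between 8 and 14 genes were lower with the pool term.

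Of 42 tested DNA replication genes, with a median of 0.10, 9 rose and 0 fell, beside 2.80% and 4.82% of all tested genes. Together the 42 genes reached 7597 CPM on soft substrates, and rises were more frequent among abundant genes, with 196 of 2301 above 100 CPM. Mcm7, a subunit of the replicative helicase, rose by 0.23 ± 0.05, and Pcna, the sliding clamp gene, by 0.20 ± 0.06. Mcm4 (0.03 ± 0.04) and Rrm2 (0.00 ± 0.07) were not called, and with the pool term between 0 and 5 genes were higher. For the abundant ribosomal protein genes, the 196 of 2301 genes above 100 CPM that rose are the background. Of 79 ribosomal protein genes, 5 rose, a share near that background, 0 fell and 68 had a positive log2 fold change. Of 62 clustered histone genes, 6 rose and 0 fell, beside 2.80% and 4.82% of all tested genes. The called copies Hist1h2ao and Hist1h3h had means of 5.83 and 22.8 CPM. Between 5 and 20 CPM 61 of 3430 genes rose, and between 20 and 100 CPM 201 of 4675 did. All 15 mitochondrial genes had a positive log2 fold change (median 0.20), but 0 were called by edgeR or DESeq2. In edgeR, 4 had an unadjusted p under 0.05, beside 3407 of all 17702 tested genes.

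The labelled cell type was checked against its markers. The counts of markers called stand beside 4.82% of all tested genes that fell and 2.80% that rose. For the abundant markers of epiblast and embryonic stem cells, 196 of 2301 genes above 100 CPM rose. Summed over the 9 markers of epiblast and embryonic stem cells, the level was between 3905 and 3957 CPM in the stiff libraries and between 4373 and 4541 CPM in the soft libraries, with 6 of 9 rising (2 to 7 with the pool term). The markers of trophoblast summed to between 341 and 368 CPM on stiff and to between 265 and 267 CPM on soft substrates, and 5 of 8 fell (2 or 3 with the pool term). They were Krt7, Hand1 (-0.83), Ascl2 (-0.73), Gata3 (-0.26) and Tfap2c (-0.21). Of the defining factors, Elf5 and Eomes (0.07 ± 0.19) were not called. Cdx2 was lower in each soft library than in any stiff library but did not pass the threshold (-0.54 ± 0.18, edgeR adjusted p 0.0569). DESeq2 called Cdx2 (adjusted p 0.0406), and it was called under 0 of the 45 pool assignments. Hand1 is also a gene of early mesoderm, where it was the only call among 8 tested markers, with 1 called also with the pool term (71.4 to 78.3 CPM in sum on stiff, 45.5 to 49.2 CPM on soft substrates).

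Fibroblast markers summed to between 101 and 108 CPM on stiff and to between 41.3 and 56.2 CPM on soft substrates. The falls of that list were Col1a1 and Col1a2, 2 of 10 tested markers, and 1 to 3 with the pool term. The log2 fold change was positive for 1 of the 10, and the median was -0.997. An unadjusted p under 0.05 was found for 6, beside 3407 of all 17702 tested genes. Postn, which encodes periostin, had 40, 44 and 71 counts in the stiff and 8, 32 and 19 counts in the soft libraries, without overlap and without passing the threshold (-1.22 ± 0.46, edgeR adjusted p 0.102). Prrx1 had 24, 5 and 8 counts on stiff and 5, 1 and 2 on soft substrates (-2.04 ± 0.75, edgeR adjusted p 0.0879), Dcn had 2, 5 and 5 counts on stiff and 1, 0 and 0 on soft substrates (edgeR adjusted p 0.0515), and Col3a1 had 18, 10 and 20 counts on stiff and 3, 13 and 9 on soft substrates (-0.77 ± 0.53). Thy1 (-0.05 ± 0.20) was not called either, and Lum had 0 counts in all 6 libraries. Primitive endoderm markers summed to between 626 and 645 CPM on stiff and to between 346 and 368 CPM on soft substrates, most of it Lrp2. Lrp2 and Dab2 (-0.44) fell, Cubn rose, and the defining factors Gata6 (-0.30 ± 0.16), Gata4 (0.38 ± 0.20), Sox17 (0.31 ± 0.38) and Pdgfra (0.13 ± 0.18) were not called. Ttr had 0 counts in all 6 libraries. With the pool term 1 or 2 genes of this list were lower and 0 to 1 higher. Neuroectoderm markers summed to between 134 and 141 CPM on soft and 137 and 147 CPM on stiff substrates, with Pax6 rising (0.50, and 0 to 1 genes with the pool term), and the 6 tested markers of 2-cell-like cells summed to under 4 CPM in each library, with 0 calls in edgeR and DESeq2 and 0 at an unadjusted p under 0.05 (0 to 1 lower with the pool term). The part of such cells in the changes of actin, matrix and keratin genes was not tested.

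The promoter windows of RefSeq, from 250 bases before to 50 after the start, were searched for 3 motifs on both strands. A match is a description of the letters and not a binding site. Windows were given for 638 of the 853 genes that fell, 379 of the 495 that rose and 11989 of all tested genes. An exact CArG box was found for 3.13% of the genes that fell, 2.64% of those that rose and 1.63% of all tested genes (206 of 15284 windows, 1.35%). In the smooth muscle and SRF list, 6 of the 21 genes that fell and had a window held it, and these are among the sequences printed above. The list was drawn up around SRF, so this share is a description. Acta1, Fhl1 and Cnn2 were called lower under all 45 pool assignments, Myl9 under 9, Vcl under 3 and Actg1 under 1. The box with 1 inner C or G was found for 10.7% of the genes that fell and 11.3% of those that rose, beside 9.29% of all tested genes.

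The TEAD motif GGAATG was found for 19% of the genes that fell and for 22.6% of those that fell by at least 1.5-fold, beside 14.8% of those that rose and 14.8% of all tested genes. The AP-1 motif TGANTCA was found for 9.25% of the genes that fell, 7.39% of those that rose and 6.30% of all tested genes. Among the 21 genes of the smooth muscle and SRF list that fell and had a window, 10 held the TEAD motif and 1 the AP-1 motif. The end of a CArG box can share GG with the start of the TEAD motif, and no test was made of these shares. Of the 32851 windows of all promoters in the table, 1.63% held the exact CArG box, 14.7% the TEAD motif and 7.81% the AP-1 motif.

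The other comparisons of soft with stiff substrates share no library with this one, but at 48 h they share most of its split of sequencing pools, soft in 1 pool and stiff in the other, apart from 2 soft libraries in serum + PD03 and 1 stiff library in serum + LIF. In serum + PD03, where 982 genes (5.55%) were called, 1315 of the 1348 genes had the same sign, and 644 were also called with that sign, 163 higher and 481 lower. Those 644 are 47.8% of the calls made here and none was called in the opposite direction. In serum + LIF at 48 h, where 138 genes (0.780%) were called, 1066 had the same sign and 92 were called with it. In serum alone (858 genes, 4.85%) the numbers were 1088 and 342, and after 24 h in serum + LIF (628 genes, 3.55%) they were 1075 and 333. Calls in the opposite direction numbered 1 in serum + LIF at 48 h, 10 in serum and 3 after 24 h. Those in serum included Pim1, Spry1, Tfap2c, Fabp3 and Sh3pxd2a. Over all tested genes, the same sign was found for 66.8%, 59.4%, 57.7% and 56.6% in these media. After 24 h in serum + LIF, soft and stiff libraries came from the same sequencing pool. There, 271 of the 853 genes that fell here were called lower, beside 446 of all 17702 tested genes. Of the 495 genes that rose here, 62 were called higher there, beside 182 of all tested genes.

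The sizes were smaller elsewhere. The genes that fell had a median log2 fold change of -0.54 here, -0.33 in serum + PD03, -0.11 in serum + LIF, -0.21 in serum and -0.24 after 24 h. The genes were chosen by their change in this comparison, so these medians are a description. There were 50 genes, 39 lower and 11 higher, that passed the threshold with the same sign in all 5 comparisons. They included Acta2, Tagln, Flnc, Thbs1, Col12a1, Col1a1, Tgfb2, Csf1, Jun, Peg10, Krt8 and Krt18 among the lower genes and Dlgap3 and Sfrp1 among the higher. At the other end, 566 genes, 265 higher and 301 lower, were called here and in none of the other comparisons, which does not show that their effects differ.

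**Figure D4:**
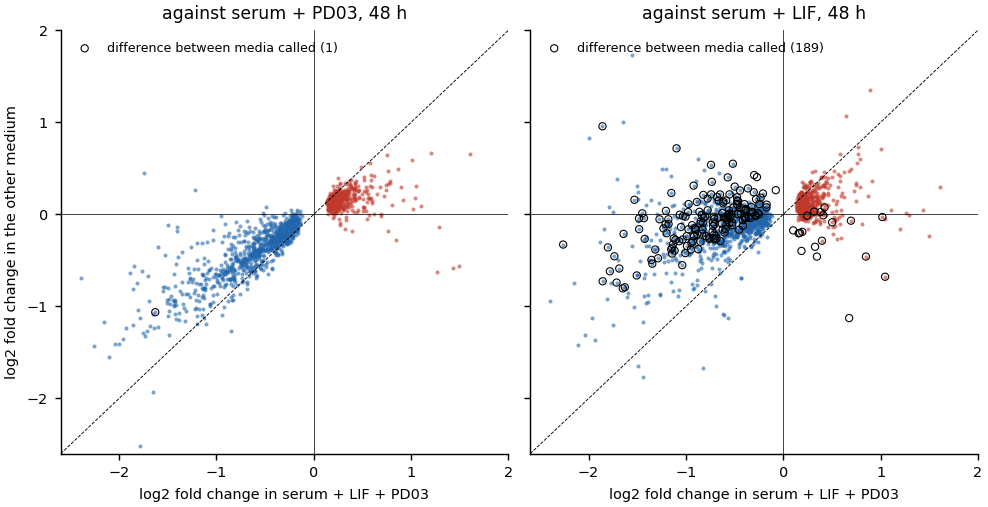
Each point is 1 of the 1348 genes called in serum + LIF + PD03, red if higher and blue if lower on soft substrates, with its log2 fold change there on the horizontal axis and that in serum + PD03 (left) or serum + LIF at 48 h (right) on the vertical axis. The dashed line marks equal values, black rings mark those genes whose effects differed between the media of the panel by the interaction test, and 11 and 12 genes lie outside the axes. On the left 1315 genes and on the right 1066 have the same sign on both axes.

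Whether PD03 changed the effect of stiffness was tested as the effect in serum + LIF + PD03 minus that in serum + LIF. The difference passed the threshold for 189 genes (1.07%), and for 168 of them it was negative. Leaving out soft serum + LIF library 2 gave 114 calls, 104 of them negative. Of those 168, 165 were lower on soft substrates with PD03, and 17 were lower in serum + LIF. Their median log2 fold change was -0.74 with LIF and PD03, -0.04 with LIF alone, -0.50 with PD03 alone and -0.33 in serum. The genes were chosen by the difference between the first 2 of these values, which are a description. Negative differences were called for 10 of 31 smooth muscle and SRF genes, 4 of 12 intermediate filament and lamin genes and 8 of 34 imprinted genes. They were also called for 5 of 31 adhesion, 5 of 38 matrix, 4 of 26 epithelial junction and 3 of 20 growth factor genes. Other lists held fewer such genes. Among all 17702 tested genes, 168 had a called negative difference.

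Lrp2 had the smallest p. Its log2 fold change was -1.05 ± 0.06 with PD03 and -0.14 ± 0.06 in serum + LIF, a difference of -0.91 ± 0.08 (edgeR adjusted p 4.82e-11). Flnc fell in both media, and its difference was -1.10 ± 0.10 (edgeR adjusted p 7.48e-11). Amot, which encodes the YAP regulator angiomotin, changed by -1.03 ± 0.07 with PD03 and was not called in serum + LIF (-0.02 ± 0.07). Its level in the stiff libraries was 71.1, 64.7 and 69.5 CPM, and that in the soft libraries was 31.3, 33.98 and 35.4 CPM. The difference for Amot was -1.01 ± 0.10, and that for Peg3 was -0.77 ± 0.08. Each of these genes, and Fabp3 and Sh3pxd2a below, passed the threshold under all 45 pool assignments and with any of the 12 libraries left out.

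Fabp3, which encodes a fatty acid-binding protein, changed direction. It fell on soft substrates with LIF and PD03 (-0.57 ± 0.06) and with PD03 alone (-0.39 ± 0.05, edgeR adjusted p 1.89e-07) and rose in serum + LIF (0.40 ± 0.07, edgeR adjusted p 0.000380) and in serum (0.31 ± 0.07, edgeR adjusted p 0.00146). The level of Fabp3 was 439, 385 and 389.6 CPM in the stiff and 268, 267 and 283 CPM in the soft libraries. The difference from serum + LIF was -0.97 ± 0.09 (edgeR adjusted p 7.48e-11). Sh3pxd2a, the gene of the podosome scaffold TKS5, fell with LIF and PD03 (-0.62 ± 0.05) and was at 0.12 ± 0.05 in serum + LIF (edgeR adjusted p 0.380), a difference of -0.74 ± 0.07. Among pluripotency genes, only Utf1 of the general list passed this test, with a difference of 0.35 ± 0.08. Of the 18 naive genes, 0 passed it in edgeR or DESeq2. In edgeR, 2 of them had an unadjusted p under 0.05 for this difference, beside 1689 of all 17702 tested genes.

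Whether LIF changed the effect of stiffness in the presence of PD03 was tested as the effect in serum + LIF + PD03 minus that in serum + PD03. A single gene, Thbs1, passed the threshold (0.00565%). An unadjusted p under 0.05 was found for 830 of 17702 genes, a share no larger than that cut-off itself. Thbs1 fell more with LIF (-1.63 ± 0.08) than without it (-1.06 ± 0.07), a difference of -0.57 ± 0.10 (edgeR adjusted p 0.0255), and it was past the threshold under 29 of the 45 pool assignments. Flnc (-0.47 ± 0.09, edgeR adjusted p 0.0521) and Acta2 (-0.65 ± 0.13, edgeR adjusted p 0.0534) were next and did not pass. Hist1h3h (0.70 ± 0.15), Pfkfb3 (-0.53 ± 0.12) and Lpp (-0.35 ± 0.09) followed. DESeq2 gave 3 calls, which were Thbs1, Flnc (adjusted p 0.0129) and Hist1h3h (adjusted p 0.0273), while Acta2 was far from the threshold there (adjusted p 0.430), and leaving out single libraries gave between 0 and 3.

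**Figure D5:**
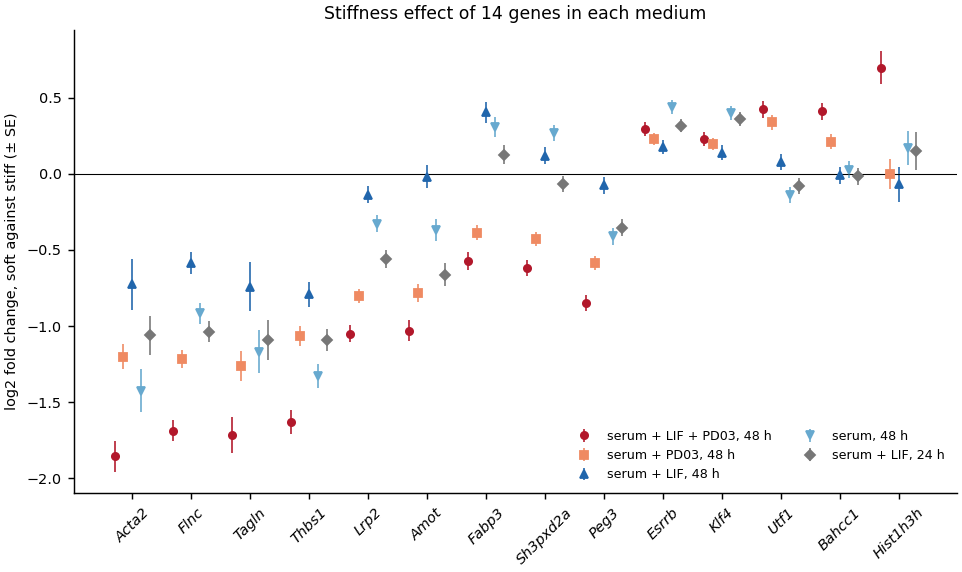
Points show the log2 fold change of soft against stiff substrates with its SE for 14 genes in the 5 comparisons of medium and time. Acta2, Flnc, Tagln and Thbs1 were below 0 in every medium and lowest in serum + LIF + PD03. Fabp3 and Sh3pxd2a were below 0 in both media with PD03 and above 0 at 48 h in both media without it.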

How the data were processed

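RNA was sequenced from 36 libraries of mESCs in 11 groups, of which the 6 of serum + LIF + PD03 at 48 h are described here. The authors deposited raw counts per gene, not normalised. Per the submitters' processing notes and the study's methods, reads were aligned with STAR 2.5.2a to the mouse genome mm10 and counted per gene with HTSeq, with an Ensembl annotation. Whether strand was used is not given in the sources used here, so overlapping genes cannot be told apart. The table held 49671 genes, 13380 of them without a count. The 36 totals ranged from 10405696 to 26635239.

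Low counts were removed with filterByExpr, which kept 17702 genes, and the libraries were scaled by TMM and fitted with edgeR 4.0.16 (R 4.3.3, limma 3.58.1) with 1 coefficient per group over all libraries. Log2 fold changes are soft minus stiff, errors are SE unless named SD, and p-values of the quasi-likelihood test were adjusted by the Benjamini-Hochberg method over all 17702 genes, with a threshold of 0.05. The SE was computed from the log2 fold change and the F statistic of that test, so it is less reliable where the change is very small. An exact permutation test of 3 against 3 libraries cannot go below 0.10 and was not used. CPM were computed with the scaled library sizes. No pair of libraries agreed within sampling noise. The procedure was tested on simulated data.

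The members, the gene lists and the tests were chosen with earlier results of these data known, and the imprinted and DNA replication lists after the values had been seen. Genes are named by rule, as up to 5 called genes per list with the largest change, 12 per direction with the largest change among genes of at least 5 CPM whose groups do not overlap, 6 per direction with the smallest p, 8 per direction with the largest difference in CPM and 6 per interaction. Other list members are given as examples, and some genes that the rule names are not reported here. Alternatives were DESeq2 1.42.0, its size factors, no filter, the compared groups alone, a pool term and leaving out each library. Gene symbols and coordinates came from the Ensembl annotation of GRCm38, and promoter sequences from RefSeq, matched by symbol.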

Additional observations from a re-analysis of the deposited data

Results flagged for a closer look

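The effect of substrate stiffness differed between media for some genes, by the interaction term of the edgeR fit. Between serum + LIF + PD03 and serum + LIF at 48 h, 189 genes passed the threshold. The 6 with the smallest p-values were Lrp2, with a log2 difference of -0.91, Fabp3 with -0.97, Flnc with -1.10, Amot with -1.01, Sh3pxd2a with -0.74 and Peg3 with -0.77. Each was past the threshold under all 45 pool assignments. In these 6 genes the effect was more negative with the MEK inhibitor.

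Between serum + LIF + PD03 and serum + PD03, 1 gene passed the threshold. This was Thbs1, with a log2 difference of -0.57, and it was lost in 10 of the 15 fits that left out 1 library.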

How the results depend on the processing

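No paired analysis was possible because the columns of the count table carry no replicate numbers. The 1348 calls in serum + LIF + PD03 became 905 to 1122 when 1 library was left out, with the lowest count without soft replicate 2, and 246 to 724 with a pool term. The pool term assumes that pools differ by the same amount in every medium, since no substrate of this comparison was split over pools. Among the 436 members of the gene lists, 174 were called, and 62 to 107 with the pool term. Of the 196 named genes that were called, 65 kept their direction and call under every alternative, and 129 under every alternative other than the pool term. Zfp42 (-0.015) and Gm24447 (-0.41) changed sign with it. The single call of the comparison with serum + PD03 became 21 without the filter, 6 with the compared groups alone, 3 in DESeq2, 0 to 4 with the pool term and 0 to 3 with 1 library left out. The 189 calls of the comparison with serum + LIF became 114 to 256 with 1 library left out, with 114 without soft serum + LIF replicate 2. The cause of these differences was not tested. Among called genes of at least 1.5-fold, the share with the same sign was 88.9% in serum and 88.2% after 24 h, against 80.7% and 79.7% of all called genes, and 96.9% in serum + PD03 and 77.7% in serum + LIF, against 97.6% and 79.1%. Depth limits the genes of up to 1 CPM most, where the median SE of the log2 fold change was 0.557 and 35 of 3960 genes were called.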
